A study of Homo sapiens with 3 samples.

Results

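BAF and PBAF are forms of the mammalian SWI/SNF complex, which uses the energy of ATP to slide or evict nucleosomes and so opens chromatin. The catalytic subunit is SMARCA4 or its paralog SMARCA2, and it is joined by a core of SMARCB1, SMARCC1, SMARCC2 and SMARCE1. An ARID subunit sets the form: ARID1A or ARID1B in BAF, ARID2 together with PBRM1 in PBAF. Mutations in many of these genes cause neurodevelopmental disorders such as Coffin-Siris syndrome, and the subunit makeup of BAF changes when neural progenitors become neurons. The results concern the 10 genes named here, taken by symbol from 20033 protein-coding genes, and all peaks of CHD8 and TRRAP from 5 kb upstream of each gene to its end.

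CHD8 is an ATP-dependent chromatin remodeler of another family, and TRRAP is a scaffold of histone acetyltransferase complexes. Both were mapped by ChIP-seq in wild-type neural stem cells made from the H9 line of human embryonic stem cells. Cells were grown with EGF and FGF and crosslinked with 2 mM disuccinimidyl glutarate and then 1% formaldehyde. The groups were CHD8 (1 library) and TRRAP (1 library), which differ only in the antibody per the labels, and the control IgG library was not analysed here. The study's title asks about genes regulated by CHD8 and TRRAP together, and the comparison made here is whether each BAF gene carries a peak of either protein. With 1 library per antibody there is no replicate error, so no test was possible. The lists hold no expression values, so the labelled cell type was not checked against the RNA of its markers.

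The CHD8 list held 23393 peaks and the TRRAP list 14735. The windows of the 10 genes held 22 CHD8 peaks and 14 TRRAP peaks. The fold is the authors' linear ratio of signal to background at a peak, and it ranks peaks only within its own list. The depth behind the lists is unknown. All 22 and all 14 member peaks had a q-value of at most 0.0001, as did all 23393 CHD8 peaks and 14712 of the 14735 TRRAP peaks. Of the member peaks, 15 and 11 lay above the median rank of their list. The 32-base words around all 22 CHD8 and all 14 TRRAP summits had a median of 1 copy in the primary assembly.

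CHD8 occupied the promoters of 9 of the 10 genes, and TRRAP those of 8, all of which also carried CHD8. SMARCC2 had CHD8 without TRRAP, and SMARCA2, the alternative ATPase, had neither protein at its canonical start. A promoter was the 1 kb on each side of the start of the canonical transcript in GENCODE release 44 (GRCh38). The CHD8 share was 90.0% (95% Wilson interval 59.6 to 98.2), beside 55.9% of all protein-coding genes. The TRRAP share was 80.0% (49.0 to 94.3), beside 34.9%, and the share with both was likewise 80.0%, beside 34.0%. These intervals cover counting error only.

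CpG is the dinucleotide that marks most broadly active promoters. The CpG ratio of the 10 promoters, observed over expected CpG within 500 bp of the start, ran from 0.718 at SMARCE1 to 1.08 at ARID1B. The SMARCE1 ratio exceeded that of 48.8% of all protein-coding genes, and the other members exceeded at least 62.3%. Among the 10264 genes at or above the SMARCE1 ratio, 80.5% had a CHD8 peak, 54.8% a TRRAP peak and 53.5% both. The member intervals for CHD8 and TRRAP contain 80.5% and 54.8%, and the interval for both contains 53.5%. With 10 members, a difference from this comparison set was therefore not detectable. The set shares only the lowest ratio with the members and was not matched to their CpG ratios. Of the 9 members with CHD8, 8 also had TRRAP (88.9%, 56.5 to 98.0), beside 60.7% of all genes with CHD8. The CpG ratio of SMARCA2, 0.832, was above those of SMARCC2 (0.781), SMARCE1 (0.718) and ARID1A (0.806), which carried CHD8. It was below those of the other members, which also carried CHD8. The part of CpG content in the missing peaks of SMARCA2 was not tested.

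Sequences around summits are shown where the results turn on them and where no annotated UTR covers the summit, since most other promoter summits fell in an annotated UTR. Each is read 5′ to 3′ along the gene from the GRCh38 reference, with CpG dinucleotides in capitals.
ARID2 upstream peak pair (chr12:45728866-45728986, plus strand): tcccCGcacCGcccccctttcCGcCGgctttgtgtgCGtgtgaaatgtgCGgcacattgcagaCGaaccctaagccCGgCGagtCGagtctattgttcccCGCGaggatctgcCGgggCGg
ARID1A upstream peak pair (chr1:26695668-26695788, plus strand): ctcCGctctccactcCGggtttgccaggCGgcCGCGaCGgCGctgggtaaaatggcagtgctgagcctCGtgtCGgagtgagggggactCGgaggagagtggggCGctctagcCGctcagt
SMARCC1 intron 1, TRRAP summit (chr3:47781452-47781572, minus strand): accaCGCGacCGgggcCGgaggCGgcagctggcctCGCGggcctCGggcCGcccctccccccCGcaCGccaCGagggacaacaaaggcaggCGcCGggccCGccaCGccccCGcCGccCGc
PBRM1 intron 1, TRRAP summit (chr3:52685583-52685697, minus strand): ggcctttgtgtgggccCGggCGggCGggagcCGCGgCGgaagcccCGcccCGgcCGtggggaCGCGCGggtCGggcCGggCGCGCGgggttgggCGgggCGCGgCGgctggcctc
SMARCC2 upstream, CHD8 summit (chr12:56189667-56189787, minus strand): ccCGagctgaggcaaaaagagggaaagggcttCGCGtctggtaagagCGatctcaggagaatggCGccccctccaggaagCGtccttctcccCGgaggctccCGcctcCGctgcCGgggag
The first 4 windows hold the strongest TRRAP promoter peaks of ARID2, ARID1A, SMARCC1 and PBRM1, and the last holds the strongest CHD8 peak of SMARCC2, where TRRAP had none. The pairs shown for ARID2 and ARID1A are their promoter pairs, with TRRAP summits at −780 bp and −287 bp, not the pairs that lie further upstream. The windows contained 14, 12, 19, 21 and 10 CpGs, respectively, and their GC content was between 65.3% and 87.0%.

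**Figure D1:**
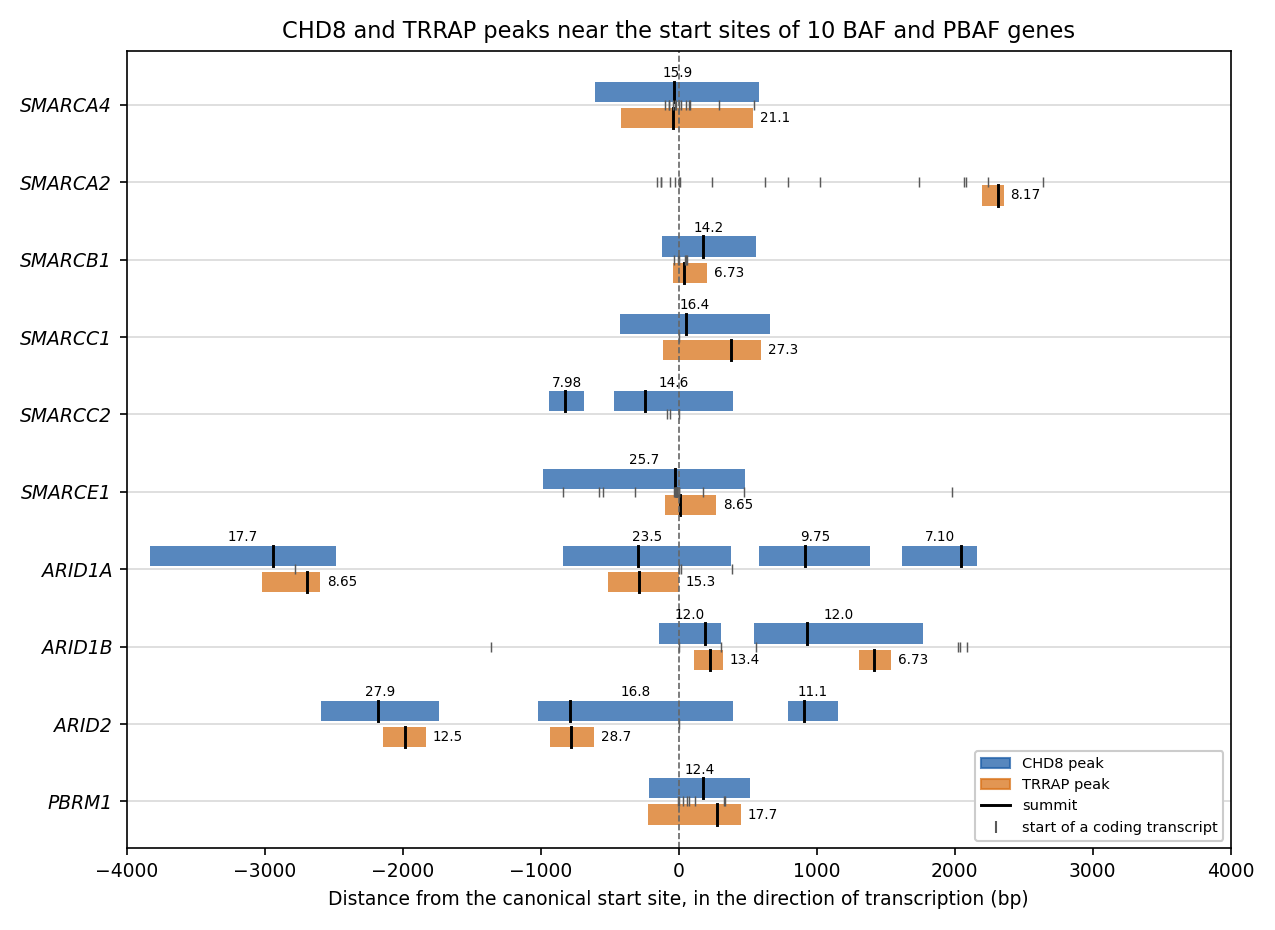
Peaks within 4 kb of the canonical start site of each gene; the x axis is the distance in bp in the direction of transcription, bars are peaks (CHD8 above, TRRAP below), black ticks are summits, grey ticks are starts of coding transcripts and the numbers are the authors' folds. CHD8 bars cover the start at 9 genes, SMARCA2 has only a TRRAP peak at 2310 bp, and SMARCC2 has only CHD8 peaks.

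The 2 ATPase genes differed in occupancy at their canonical starts. SMARCA4 (chromosome 19, plus strand) carried a 1192 bp CHD8 peak from 10960424 to 10961615, with a fold of 15.9 and a −log10 q of 32.3. The TRRAP peak there, 10960614 to 10961567, had a fold of 21.1 and a −log10 q of 45.9. It lay wholly within the CHD8 peak, and the summits were 7 bp apart, at −34 bp and −41 bp from the start. Both summits fall in an annotated UTR of another transcript. The TRRAP peak ranked among the strongest 4.27% of its list and the CHD8 peak among the strongest 13.7%. No further peak of either list lay in the 118 kb of SMARCA4.

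At SMARCA2 (chromosome 9, plus strand) the nearest CHD8 peak began 142491 bp downstream of the canonical start, inside the gene. A group of 3 CHD8 peaks lay there, in intron 27 of the canonical transcript, at 2157838 to 2158019, 2158209 to 2158589 and 2158826 to 2159000. Their folds were 8.43, 8.43 and 7.10, and they ranked at 62.6%, 59.5% and 81.9% of the list, so all were in its weaker part. Of the 47 coding transcripts annotated at SMARCA2, 20 begin between 142333 and 145266 bp after the canonical start, and the middle CHD8 summit was −67 bp from the nearest of these starts. None of these 3 peaks overlapped a TRRAP peak.

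The TRRAP peak of SMARCA2 was a different one, at 2017548 to 2017701, in intron 1, 2310 bp after the canonical start and 71 bp after the start of another coding transcript. It was 154 bp wide, with a fold of 8.17 and a −log10 q of 9.79, close to the median of its list (9.79). When the starts of all coding transcripts were used, SMARCA2 counted as occupied by both proteins, though at separate starts, and the counts became 10 of 10 for CHD8 and 9 of 10 for TRRAP. The same rule gave 58.2% and 37.5% of all protein-coding genes. The window at the first of the internal CHD8 peaks had 3 CpGs in 92 bases, and it contained the E-box CACGTG at which MYC and MAX bind.
SMARCA2 internal start group, CHD8 summit (chr9:2157882-2157973, plus strand): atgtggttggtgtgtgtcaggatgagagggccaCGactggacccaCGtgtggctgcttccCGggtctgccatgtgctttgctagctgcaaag

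The core subunits were occupied by CHD8 at all 4 genes and by TRRAP at 3. SMARCC1 and SMARCC2 encode paralogous scaffold subunits. SMARCC1 (chromosome 3, minus strand) carried CHD8 from 47781234 to 47782322 (fold 16.4) and TRRAP from 47781299 to 47782009 (fold 27.3). The TRRAP peak ranked 322 in its list (strongest 2.19%), second among the members. Its summit lay in intron 1, 381 bp after the start, and the CHD8 summit lay in the 5' UTR at 51 bp, so the summits were 330 bp apart although the TRRAP peak was contained in the CHD8 peak.

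SMARCC2 (chromosome 12, minus strand) had CHD8 peaks at 56189089 to 56189954 (fold 14.6, summit at −244 bp) and 56190166 to 56190420 (fold 7.98, summit at −825 bp). The second summit was 24 bp from the start of a long noncoding RNA gene. The nearest TRRAP peak of any kind began 30930 bp from the SMARCC2 start. The CHD8 fold of SMARCC2 was above that of SMARCB1, ARID1B and PBRM1, each of which had a TRRAP promoter peak. It was below that of the other members with both proteins, and its −log10 q (28.0) equalled that of SMARCB1. A link between CHD8 strength and TRRAP was not tested.

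SMARCE1 and SMARCB1 carried the weakest TRRAP promoter peaks of the members. SMARCE1 encodes an HMG-box subunit, and its CHD8 peak (chromosome 17, 40647339 to 40648799) was the strongest CHD8 promoter peak of the 10 genes, with a fold of 25.7, a −log10 q of 65.2 and a width of 1461 bp. The TRRAP peak there, 40647548 to 40647921, had a fold of 8.65, equal to the median of the strongest TRRAP promoter peaks of all genes (8.65). It covered 25.6% of the CHD8 peak, and the summits were 37 bp apart. SMARCB1 encodes the core subunit lost in rhabdoid tumors. Its CHD8 peak (chromosome 22, 23786843 to 23787524) had a fold of 14.2, and its TRRAP peak (23786922 to 23787174) had a fold of 6.73 and ranked 11335 of 14735.

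The ARID genes held most of the peaks outside canonical promoters. ARID1A encodes the most frequently mutated BAF subunit in cancer, and ARID1B its paralog, a leading cause of Coffin-Siris syndrome. ARID1A (chromosome 1, plus strand) had 5 CHD8 peaks, and 7.94% of the 4105 genes at least as long had as many or more. After merging of peaks less than 500 bp apart it had 3, the same number as ARID1B. The promoter pair was CHD8 at 26695173 to 26696397 (fold 23.5) and TRRAP at 26695500 to 26696015 (fold 15.3), with summits 5 bp apart at −292 bp and −287 bp. A second pair lay at the start of an upstream coding transcript, −2779 bp from the canonical start: CHD8 at 26692186 to 26693532 (fold 17.7) and TRRAP at 26692993 to 26693414 (fold 8.65). The starts of 2 long noncoding RNA genes also lay within 1 kb of this pair, the nearer 490 bp from the CHD8 summit. The other CHD8 peaks of ARID1A had no TRRAP partner, and their folds were 9.75 in the coding part of exon 1, 7.10 in intron 1 and 7.98 in intron 4.

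ARID1B (chromosome 6, plus strand), the longest member at 435 kb, had 4 peaks of each protein. At least 4 TRRAP peaks were found at 8.47% of the 437 genes that are as long or longer, and its 9.10 peaks per Mb of each protein compare with 12.3 for CHD8 and 7.42 for TRRAP over all gene windows. At the promoter, CHD8 was split into peaks at 156777235 to 156777682 and 156777921 to 156779151, each with a fold of 12.0. The TRRAP peak at 156777490 to 156777696 (fold 13.4) overlapped the first of these with summits 40 bp apart. A weak TRRAP peak outside the 1 kb promoter window, with its summit at 1417 bp (fold 6.73), overlapped the second CHD8 peak. These TRRAP peaks were 207 and 238 bp wide, beside a median of 229 bp for the TRRAP list.

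Inside ARID1B, both proteins met at a pair of intronic sites of different base composition. In intron 3, TRRAP at 156933273 to 156933513 reached a fold of 12.9 (rank 2454), and CHD8 at 156933278 to 156933582 reached 8.43 (rank 14118). This site was −2155 bp from the nearest coding start of the gene, with a CpG ratio of 0.270 over the TRRAP peak. In intron 4, CHD8 at 157021011 to 157022161 reached a fold of 13.3 (rank 5167), and TRRAP at 157021039 to 157021961 reached 8.65 (rank 6325). The CHD8 summit there was −756 bp from an internal coding start and the CpG ratio over its peak was 0.986. The windows at the summit of the higher-ranked protein held 0 and 15 CpGs.
ARID1B intron 3, TRRAP summit (chr6:156933330-156933450, plus strand): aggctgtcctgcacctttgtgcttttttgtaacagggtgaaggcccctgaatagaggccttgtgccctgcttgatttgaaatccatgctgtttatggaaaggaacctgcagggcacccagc
ARID1B intron 4, CHD8 summit (chr6:157021470-157021590, plus strand): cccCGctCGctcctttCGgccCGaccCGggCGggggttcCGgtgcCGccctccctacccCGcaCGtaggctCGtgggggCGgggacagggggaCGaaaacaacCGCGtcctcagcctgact
The intron 3 pair was the only one of the members' overlapping pairs with a CpG ratio under 0.5. It was also the only one with neither a coding start of its own gene nor the start of another gene within 1 kb. The intron 4 window contained the SP word GGGGCGGGG, which the PBRM1 intron 1 window shown above held on the other strand.

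ARID2 and PBRM1 are the PBAF members. ARID2 (chromosome 12, plus strand) had the strongest TRRAP promoter peak of the members, at 45728773 to 45729091, with a fold of 28.7 and rank 285 (strongest 1.93%). It lay inside a CHD8 peak of 1409 bp at 45728688 to 45730096 (fold 16.8), covering 22.6% of it, and the summits were 7 bp apart at −787 bp and −780 bp. Both peaks were at the start of a long noncoding RNA gene, 155 and 162 bp from the summits. Further upstream, CHD8 at 45727117 to 45727970 had a fold of 27.9 and rank 792, the strongest CHD8 peak in any member window. TRRAP at 45727563 to 45727873 (fold 12.5) overlapped it, 135 bp from the start of LINC00938, also a long noncoding RNA gene. A separate CHD8 peak, with its summit at 909 bp in intron 2 (fold 11.1), had no TRRAP partner.

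PBRM1 (chromosome 3, minus strand), which encodes the polybromo subunit that reads acetylated histones, had CHD8 at 52685394 to 52686129 (fold 12.4) and TRRAP at 52685464 to 52686136 (fold 17.7). TRRAP covered 90.5% of the CHD8 peak, the largest such share of the members, and the peaks had summits 100.0 bp apart in intron 1. The start of GNL3, a protein-coding gene for a nucleolar protein that is read in the opposite direction, lay 268 bp from the CHD8 summit, so the peaks cannot be assigned to either gene. Long noncoding RNA starts likewise lay within 1 kb of promoter peaks at SMARCC2, SMARCE1, ARID1B and ARID2.

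**Figure D2:**
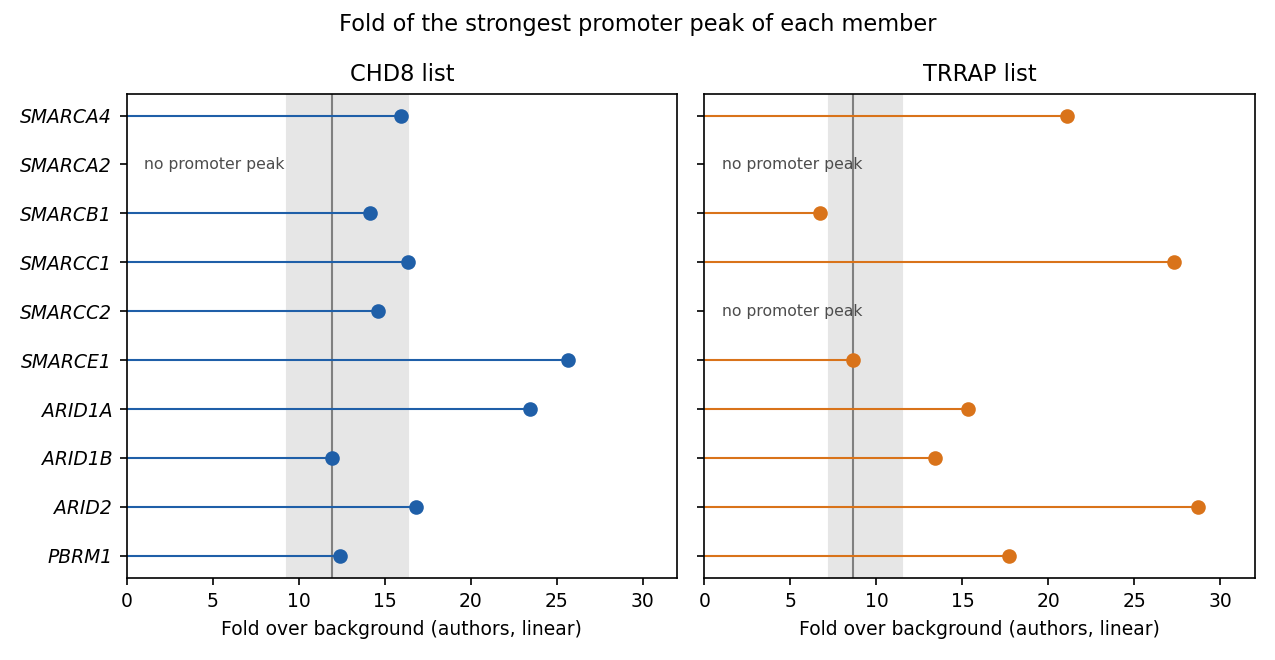
Fold of the strongest promoter peak of each gene in the CHD8 list (left) and the TRRAP list (right), on a linear axis; the grey line and band are the median and the 25th to 75th percentile of the strongest promoter peaks of all protein-coding genes with a peak. CHD8 folds of the 9 members lie between 12.0 and 25.7, and TRRAP folds of the 8 members between 6.73 and 28.7.

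Within each list, the members' promoter peaks were mostly above the middle. The median fold of the strongest promoter peak was 15.9 for CHD8 over 9 members and 12.0 over the 11208 genes with such a peak. For TRRAP it was 16.5 over 8 members and 8.65 over 7000 genes. In the CHD8 list ARID1B equalled the median of all genes, and the other 8 exceeded it. In the TRRAP list SMARCB1 was below, SMARCE1 equalled it and 6 exceeded it. The 75th percentile of all genes in the TRRAP list, 11.5, was passed by SMARCA4, SMARCC1, ARID1A, ARID1B, ARID2 and PBRM1. The order of members differed between the lists: SMARCE1 was first for CHD8 and seventh for TRRAP, and ARID2 and SMARCC1 led for TRRAP. Members without a peak are not in these medians. Among 19 further SWI/SNF subunit genes, described below, the median fold was 14.0 for CHD8 over 18 genes and 10.6 for TRRAP over 15. Fold and width were not compared with genes at or above the SMARCE1 CpG ratio alone.

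The strongest CHD8 promoter peaks of the 9 members had a median width of 1192 bp (range 682 to 1461), beside 638 bp for all genes. The strongest TRRAP promoter peaks of the 8 members had a median of 445 bp (207 to 954), beside 269 bp. At the further subunit genes the median widths were 806 bp for CHD8 and 326 bp for TRRAP. Of the 8 members with both proteins, 7 had the strongest peaks of the lists in overlap, as did 6283 of the 6802 genes with both. ARID1B was the exception, where the CHD8 peaks were equal in fold and −log10 q and the wider one, downstream of the TRRAP peak, was taken. The median distance between the summits of the strongest peaks was 68.5 bp, beside 105 bp for all genes with both. When the nearest of equal peaks was taken instead, all 8 pairs overlapped and the medians were 38.5 and 100.0 bp.

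**Figure D3:**
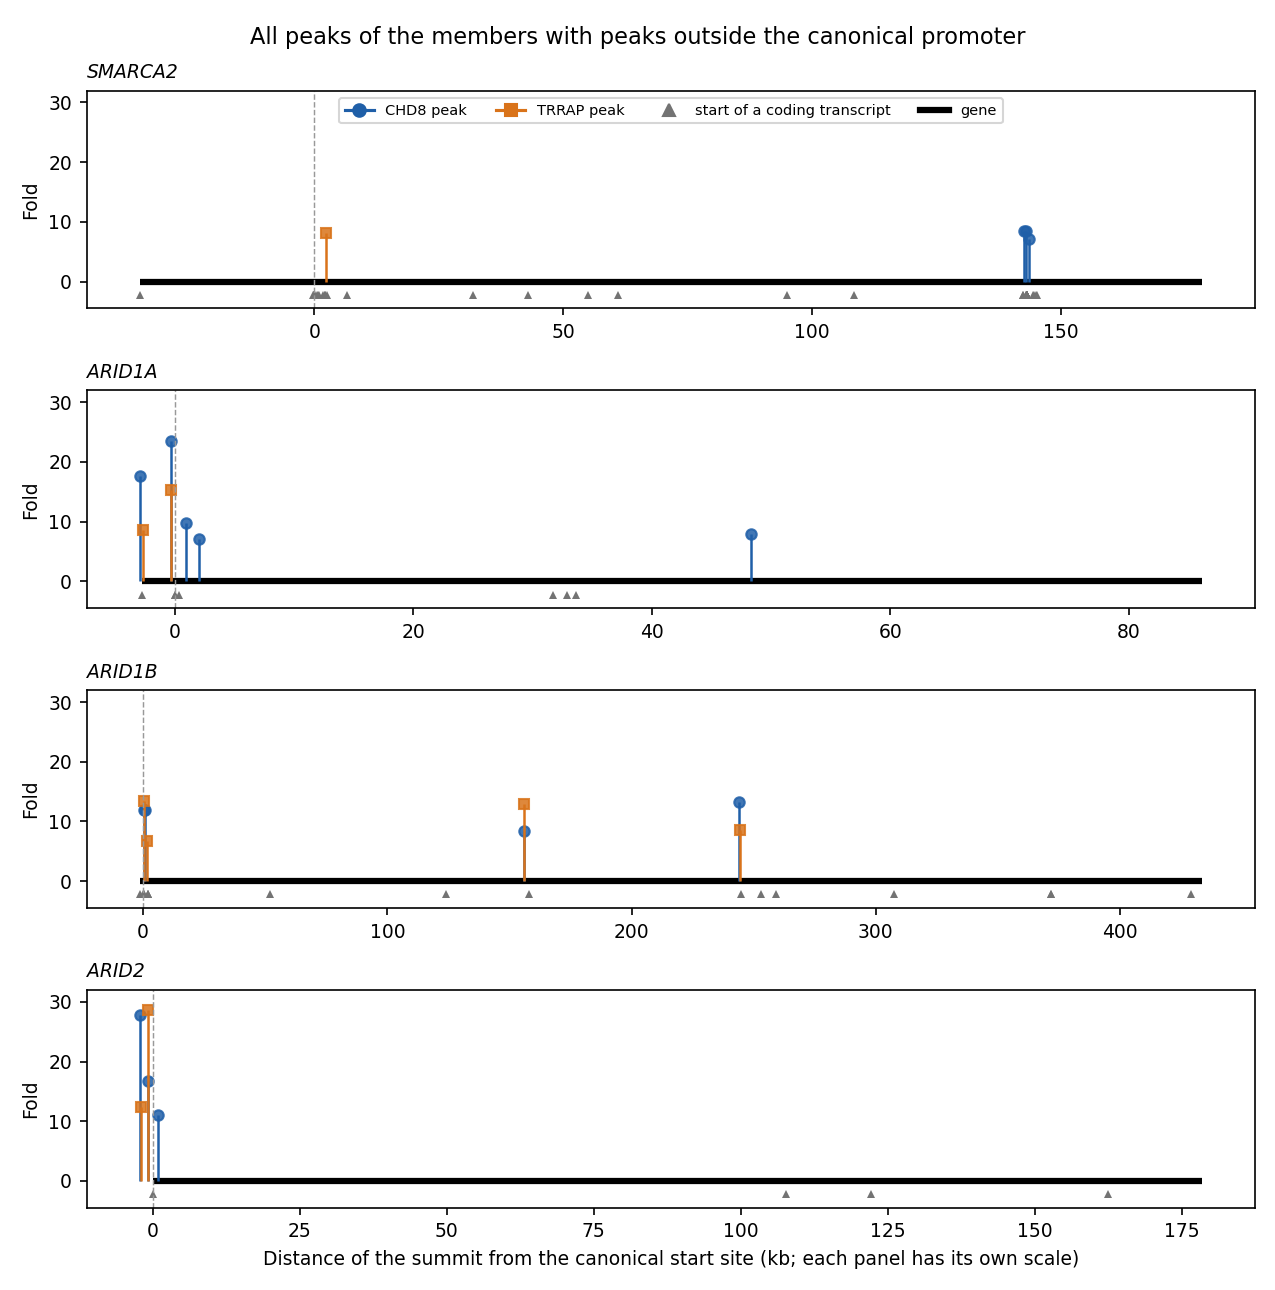
All peaks in the windows of the 4 genes with peaks outside the canonical promoter; the x axis is the distance of the summit from the canonical start in kb, with its own scale in each panel, the y axis is the authors' fold, circles are CHD8, squares are TRRAP and triangles are starts of coding transcripts. CHD8 at SMARCA2 sits only in the internal group of starts, and ARID1B has 2 intronic pairs.

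Outside the canonical promoters, 9 CHD8 and 6 TRRAP peaks were found, at SMARCA2, ARID1A, ARID1B and ARID2. The other 6 genes had none, although SMARCC1, PBRM1 and SMARCA4 are each over 100 kb long by annotation. A CHD8 peak outside the promoter was present at 4 of 10 members (interval 16.8 to 68.7%), at 24.3% of all genes and at 31.4% of the 10810 genes at least as long as the shortest member (23.7 kb). For TRRAP the same 4 members compared with 15.2% and 20.0%. For TRRAP the 20.0% lay inside the members' interval, as the 31.4% did for CHD8. With promoters taken at all coding starts, TRRAP peaks remained outside at 2 members. At least 3 CHD8 peaks were found at 4 of 10 members (16.8 to 68.7%), 11.3% of all genes and 15.6% of those as long. After merging of peaks less than 500 bp apart, 2 members had 3 (5.67 to 51.0%), beside 5.83% and 9.09%, so the count depends on how neighbouring peaks were divided. Per Mb of window, the members held 14.4 CHD8 and 9.19 TRRAP peaks, and all genes 12.3 and 7.42. By position, 5 of the 9 CHD8 and 4 of the 6 TRRAP peaks were within 1 kb of another coding start of the same gene. This share was not counted for the peaks of all gene windows, so it has no baseline and describes these peaks only. Of all 22 CHD8 peaks, 13 overlapped a TRRAP peak (59.1%), beside 48.0% of the CHD8 peaks in the windows of all genes. Of the 14 TRRAP peaks, 13 overlapped CHD8 (92.9%, beside 90.1%), and the SMARCA2 peak was the one that did not.

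Exact consensus words were counted on both strands. From 250 bases before to 50 after the start, the E-box CACGTG was found at PBRM1 alone (8.76% of all protein-coding genes), and the YY1 word AAGATGGCG at SMARCC2 alone (2.84%). The SP word was found at ARID1A, SMARCC1 and SMARCE1 (24.5% of all genes) and the NFY word CCAAT at PBRM1, SMARCE1 and SMARCB1 (36.1%). The ETS word CCGGAAGT (6.14%) and the E2F words TTTCCCGC, TTTGGCGC, TTTCGCGC and TTTGCCGC (4.36%) were found at 0 of 10. Within 100 bases of the summits, the E-box occurred in 1 of 22 CHD8 windows, at the internal starts of SMARCA2, and in 1 of 14 TRRAP windows, at the upstream start of ARID1A, beside 5.37% and 7.03% of all peaks on the main chromosomes. The SP word occurred in 5 of 22 and 3 of 14 windows, beside 12.0% and 14.9%. The NFY word occurred in 1 of 22 and 1 of 14, beside 17.9% and 15.9%. The ETS, NRF1, YY1 and E2F words occurred in 0 of 22 and 0 of 14, each beside at most 3.63% and 3.14% of all peaks. Hits of different words may overlap at their ends, and words with a mismatch were not counted.

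A further 19 genes for SWI/SNF subunits gave similar counts. CHD8 was at the promoters of 18 (94.7%, 75.4 to 99.1), and TRRAP at 15 (78.9%, 56.7 to 91.5), all with CHD8. The gene without either was ACTL6B, the actin-related subunit of postmitotic neurons. CHD8 without a TRRAP peak at the canonical start was found at DPF1 and DPF3, which encode plant homeodomain subunits of neuronal BAF, and at BRD7, a bromodomain subunit of PBAF.

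Neural progenitor BAF uses ACTL6A, DPF2, PHF10 and SS18, which are exchanged for ACTL6B, DPF1 or DPF3, and SS18L1 in neurons. All 4 progenitor genes carried both proteins, and of the 4 neuronal genes 3 carried CHD8 and 1 carried TRRAP at the canonical start. Of all protein-coding genes, 55.9% carried CHD8, 34.9% TRRAP and 34.0% both there, and 37.5% carried TRRAP at any coding start. At any coding start the neuronal TRRAP count was 2 of 4, since DPF1 had overlapping peaks of both proteins at an upstream start (−4471 bp). The TRRAP peak there, on chromosome 19 from 38228285 to 38228630, had a fold of 11.5. At the progenitor genes, TRRAP folds were 10.6 at ACTL6A, 12.0 at DPF2, 18.7 at PHF10 and 17.2 at SS18, and CHD8 folds were 13.7, 13.3, 15.9 and 14.2. The neuronal gene with both was SS18L1, whose TRRAP fold of 19.2 was the highest of the 19 genes, with a CHD8 fold of 11.1. The CHD8 folds of DPF1 and DPF3 were 15.5 and 7.54. The CpG ratios of ACTL6B (0.684) and DPF1 (0.681) were below those of all 10 members and of the 4 progenitor genes, while that of DPF3 was 0.923, and the part of CpG content in the occupancy was not tested. With 4 genes in each group and 1 library per antibody, these counts are a description.

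The highest CHD8 folds of the 19 were at BICRAL (26.5, chromosome 6, 42782060 to 42783965), a subunit gene of the noncanonical form, SMARCD1 (21.7, chromosome 12, 50085023 to 50085739) and BICRA (16.8, chromosome 19, 47608270 to 47609438). After SS18L1, the highest TRRAP folds were at PHF10 (chromosome 6, 169724424 to 169725209) and SS18. BICRAL thus had a CHD8 fold above that of SMARCE1, the highest promoter peak of the members, but below the upstream ARID2 peak (27.9). Its CHD8 peak overlapped the promoter window, with the summit beyond it at 1415 bp. The TRRAP fold of BICRAL was 13.9.

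**Figure D4:**
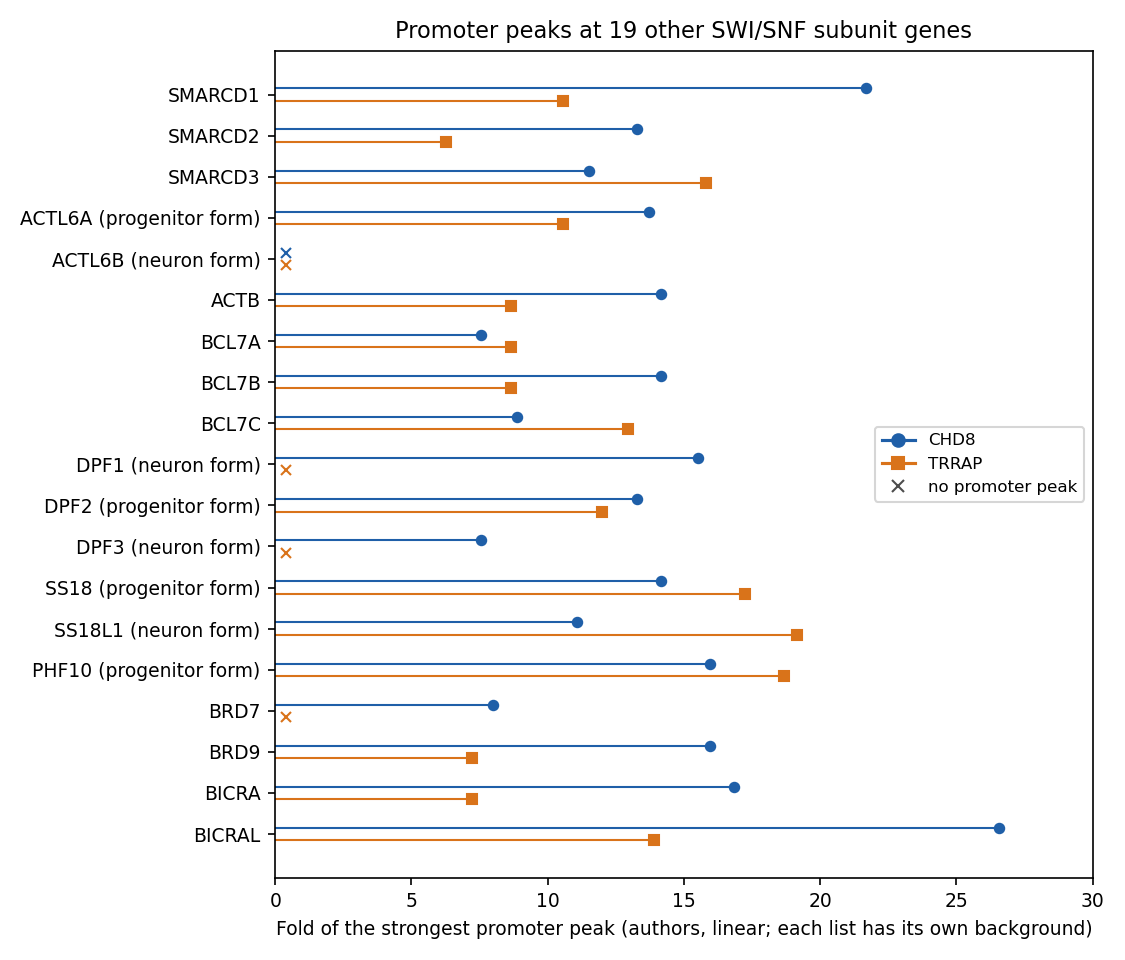
Fold of the strongest promoter peak at 19 further SWI/SNF subunit genes in each list (circles CHD8, squares TRRAP, crosses no promoter peak), on a linear axis from 0; the background of each list is its own, so a CHD8 and a TRRAP value of 1 gene are not compared in size. The 4 progenitor genes have both marks, and 3 of 4 neuronal genes lack a TRRAP peak at the canonical start. Of all protein-coding genes, 34.9% have a TRRAP peak there.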

How the data were processed

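The deposited peak lists of 1 CHD8 and 1 TRRAP ChIP-seq library were used. The submitters' processing notes name HISAT2, MACS2 2.1.1.20160309 and the build GRCh38, without roles, control or filters. All 84 and 88 sequence names were in the GRCh38 reference used here. The authors' deposited values were the fold (a linear ratio), the −log10 p and −log10 q, the summit offset (another unit, in bp) and a score, which in all peaks was 10 times the −log10 q without its decimals. Each list was called on 1 library at the q-value in its name (0.0001 and 0.001).

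Coordinates were counted from 1. Peaks were ranked within their list by −log10 q, then fold, width and position, and overlapped if they shared 1 bp. A promoter peak overlapped the 1 kb on each side of the canonical start, so its summit can lie outside. Genes and starts came from GENCODE release 44, and copies were counted outside alternate sequences. Shares carry Wilson 95% intervals. Python 3.11.15, numpy 2.4.6, pandas 2.3.3, scipy 1.17.1, pysam 0.24.0, numba 0.67.0 and matplotlib 3.10.9 were used, and overlap and promoter assignment were checked on constructed peaks with known answers. The members and lists were chosen with earlier results of these data known. All 10 members were named, with the further subunits that lacked a promoter peak or had the 3 highest folds of a list. ACTL6A and DPF2 fall outside this rule and were chosen after their values were seen. Alternatives covered the promoter window, transcript starts, peak strength, window length, merging and the overlap rule.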

Additional observations from a re-analysis of the deposited data

How the results depend on the processing

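Of 97 recounts under 13 settings, 92 stayed within 1.5 times the reported value. Recounts of peaks per gene, of peaks outside promoters, of subunit forms and of equal peaks were chosen after seeing the data. The member recounts with TRRAP peaks at a q-value of at most 0.0001 could not move, since all 14 TRRAP peaks already passed. Counts of 9 of 10 members or 4 of 4 progenitor genes could not rise 1.5 times. The 92 is therefore not a measure of stability. Members with at least 3 CHD8 peaks fell from 4 to 2 when peaks closer than 500 bp were merged. Members with a TRRAP peak outside the promoter fell from 4 to 2 with 2500 bp on each side or the starts of all coding transcripts, which also gave 2 neuronal genes TRRAP. Taking the nearest of equal peaks moved the median summit distance to 38.5 bp. Members with a CHD8 promoter peak numbered 9 to 10, and those with a TRRAP promoter peak, and with both, 7 to 9. A window of 500 bp on each side left out the TRRAP peak of ARID2, and peaks above the median rank left out that of SMARCB1. A window of 2500 bp gave SMARCA2 a TRRAP peak. The windows held 15 to 23 CHD8 and 11 to 15 TRRAP peaks. Merging peaks closer than 500 bp gave 15 CHD8 peaks, which follows from joining neighbours. Overlapping peaks numbered 9 to 14 in each list, fewest with centres within 200 bp, where 9 of each remained. No paired analysis was possible because each antibody had 1 library, and leaving out a replicate could not be done for the same reason. With 10 genes, the counting intervals are wide, and a peak that is not in a list may still be present below the authors' threshold, since the depth is unknown.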
